A study of Oncorhynchus mykiss with 9 samples.

Results

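BNIP3 and its close relative BNIP3L, also called NIX, are proteins of the mitochondrial outer membrane that mark mitochondria for removal. They bind ATG8 proteins, the LC3 and GABARAP families, on the growing autophagosome, and so act as mitophagy receptors without the ubiquitin tagging that the PINK1-Parkin pathway needs. In mammals both genes are targets of the hypoxia-inducible factor HIF, and in mice NIX is needed to clear mitochondria from maturing red blood cells. The transcripts of these receptors were followed in rainbow trout (Oncorhynchus mykiss) head kidney, where bony fishes make most of their blood cells and which also holds the steroid-producing interrenal cells. Members were the rows of the deposited table whose symbol, in lower case, is bnip3 or bnip3l, with or without a copy suffix a or b. This gave 9 of the 44219 genes, 5 for bnip3 and 4 for bnip3l. The same 9 rows, and no others, carried the KEGG orthologue numbers of BNIP3 or BNIP3L.

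The fish were full siblings of about 130 g kept at 12 °C, with no genotype, strain or age in the labels, and no word on whether a library holds 1 fish or a pool. Each of the 3 groups has 3 libraries, 9 in all. Control fish stayed in normoxic water with 8.5 mg/L of oxygen, and their tag, named batch, reads 0 h. The water of the moderate hypoxia group held 4.5 mg/L, that of the severe hypoxia group 3.0 mg/L, and both are tagged 12 h. The authors' table holds 1 mean estimated count and 1 FPKM (fragments scaled by transcript length and library size) for each gene and group, so each value below is the authors' group value, the spread between fish is unknown, and no difference has a replicate check or a p-value. Oxygen and sampling time differ together between either hypoxia group and the control and cannot be told apart, whereas both hypoxia groups carry the same time and differ by label in oxygen alone. In whole tissue, fewer cells of a type and less RNA per cell cannot be told apart either.

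The mean total was between 14700244 and 15301518 counts per library. Ratios below are of scaled counts: with the control at 1, the trimmed mean of M values gave a divisor of 1.62 for the moderate and of 1.22 for the severe group. Without it, on plain library totals, the median gene stood at a log2 ratio of 0.69 in moderate hypoxia and 0.34 in severe hypoxia against the control, and at -0.34 for severe against moderate. Intervals are exact 95% intervals of the counts summed over the 3 libraries of a group and cover counting error only. The interrenal markers were all detected, with star, which carries cholesterol into mitochondria, at 2405, 1875 and 4536 counts in control, moderate and severe hypoxia. The chromaffin markers th, dbh and pnmt were detected too, while the other 4 of 7 were not analysed. Among the red cell markers, the globins were abundant, while the row named GATA1 was at or near 0.

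Summed over copies, both receptors had their lowest level in moderate hypoxia and their highest in severe hypoxia. The bnip3 sum was 3669.7 mean counts per library in control fish, 2129.7 under moderate and 5034 under severe hypoxia. The bnip3l sum was at 3163, 2456 and 4335 counts in the same order. Against the control, moderate hypoxia was 2.79-fold lower for bnip3 (counting interval 2.70 to 2.88) and 2.08-fold lower for bnip3l (2.02 to 2.15). Severe hypoxia was 1.12-fold higher than the control for each of them, with intervals of 1.10 to 1.15 for bnip3 and 1.09 to 1.15 for bnip3l. Severe against moderate hypoxia gave the widest separation, 3.14-fold for bnip3 (3.05 to 3.23) and 2.34-fold for bnip3l (2.28 to 2.41).

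On scaled counts, severe hypoxia thus lay nearer to the control than moderate hypoxia did. In CPM, counts scaled to the library total, the bnip3 sum was at 241, 139 and 342 in control, moderate and severe hypoxia, and the bnip3l sum at 207, 160 and 295. On that scale the groups kept their order from lowest to highest. The log2 ratios for moderate and severe hypoxia against the control were -0.79 and 0.51 for bnip3 and -0.37 and 0.51 for bnip3l. By these values severe hypoxia was still the nearer group to the control for bnip3, while moderate hypoxia was the nearer one for bnip3l.

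Among 12962 other symbols, each summed over its rows, 4.49% had a lower ratio of moderate hypoxia to control than bnip3, and 1.82% had a higher ratio of severe to moderate hypoxia. For bnip3l these shares were 9.87% and 3.99%. For severe hypoxia against the control the sums stood near the middle, with 34.8% of symbols above bnip3 and 35.0% above bnip3l. Of 12965 symbols, 649 (5.01%) were at least 2-fold lower in moderate hypoxia than in the control and at least 2-fold higher in severe than in moderate hypoxia, as both sums were. The comparisons with the control share the control libraries, and this count uses the moderate libraries in both of its ratios.

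The copies of bnip3 differed widely in level. Lengths are given here because the file cuts gene IDs to 8 characters and they tell the copies apart. They were derived from the authors' count and FPKM. The 1493-base copy, spelled Bnip3, was at 76.7 FPKM in control fish, 28.1 under moderate and 125 under severe hypoxia. The 1215-base copy, spelled bnip3 and the only one that matched a RefSeq gene by its exact symbol, was at 82.1, 59.0 and 95.9 FPKM. These 2 copies held most of the bnip3 transcripts in every group, and which of them was higher switched between moderate and severe hypoxia.

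The other 3 bnip3 copies were much lower. The 2819-base copy was at 4.58, 5.84 and 8.66 FPKM in control, moderate and severe hypoxia, and the 2800-base copy at 4.43, 3.05 and 5.30. Both long copies share reads: neither count was whole after multiplication by 3, while their sum was whole within 0.01 in every group (1158, 1151 and 1729 counts over 3 libraries). How the reads were divided between them is an estimate, and the pair is better read together, at 386, 384 and 576 mean counts. The last copy stood at 17.7, 2.33 and 10.7 counts, under 1 FPKM throughout, so its ratios rest on few reads.

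**Figure D1:**
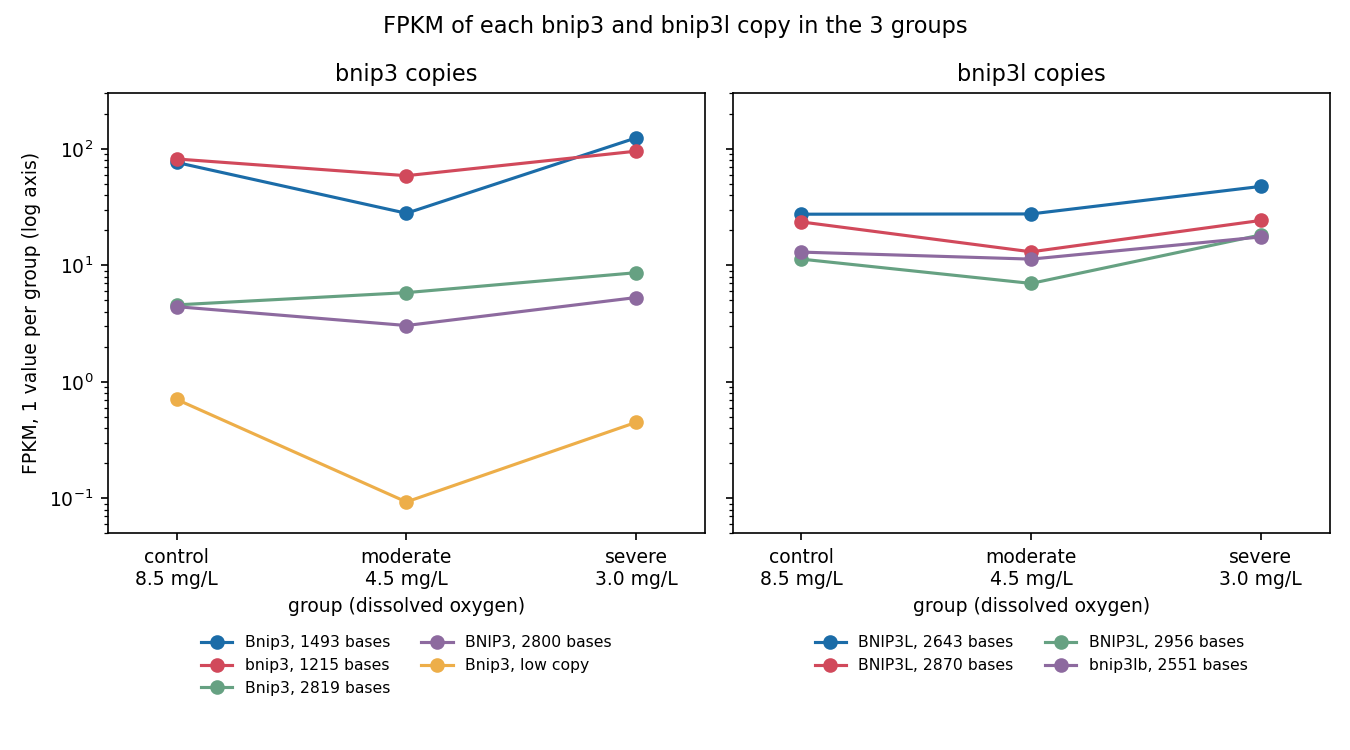
FPKM of each copy (log axis, 1 authors' value per group, no replicate spread) against group, with bnip3 copies on the left and bnip3l copies on the right. The 1493-base bnip3 copy goes from 76.7 to 28.1 and 125 FPKM and crosses the 1215-base copy, while the bnip3l copies keep between 7.01 and 47.8 FPKM.

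Among the copies above 1 FPKM, the 1493-base copy differed most between the hypoxia groups. Its mean counts were 1745, 643 and 2735 in control, moderate and severe hypoxia. That is 4.39-fold lower in moderate hypoxia than in the control (counting interval 4.17 to 4.63), 1.29-fold higher in severe hypoxia than in the control (1.24 to 1.33), and 5.64-fold higher in severe than in moderate hypoxia. The 1215-base copy, at 1521, 1101 and 1712 counts, was 2.24-fold lower in moderate hypoxia (2.14 to 2.34) and 2.06-fold higher in severe than in moderate hypoxia (1.97 to 2.16). Against the control, this copy was at a log2 ratio of -0.12 in severe hypoxia.

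The pair of long copies was at a log2 ratio of -0.70 to the control under moderate hypoxia (-0.82 to -0.58) and 0.29 under severe hypoxia (0.18 to 0.40), and was 1.99-fold higher in severe than in moderate hypoxia (1.85 to 2.15). The low copy was at log2 ratios of -3.62 (-5.00 to -2.47) and -1.01 (-1.70 to -0.35). With the 1493-base copy left out, the bnip3 sum was 2.09-fold lower in moderate hypoxia, at -0.03 in severe hypoxia on the log2 scale (-0.08 to 0.02), and 2.05-fold higher in severe than in moderate hypoxia. Without that copy the interval for severe hypoxia against the control included 0 on scaled counts.

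The bnip3l copies lay closer together. The most abundant one, BNIP3L of 2643 bases, was at 27.6 FPKM in control fish, 27.7 under moderate and 47.8 under severe hypoxia. The 2870-base copy was at 23.6, 13.1 and 24.4 FPKM, and the 2956-base copy at 11.3, 7.01 and 18.3. The bnip3lb copy of 2551 bases, which matched a RefSeq gene by its symbol, was at 13.0, 11.3 and 17.6 FPKM. Each bnip3l copy was highest in severe hypoxia on this scale, by a small margin over the control for the 2870-base copy.

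Scaled counts of the bnip3l copies gave log2 ratios of moderate hypoxia to control of -0.68 (-0.75 to -0.61) for the 2643-base copy, -1.54 (-1.63 to -1.46) for the 2870-base copy, -1.38 (-1.50 to -1.27) for the 2956-base copy and -0.88 (-0.99 to -0.78) for bnip3lb. Severe against moderate hypoxia gave 1.13, 1.25, 1.73 and 0.98 in that order. Severe against control gave 0.45, -0.30, 0.35 and 0.10, so 1 of the 4 lay below 0, and the interval of bnip3lb (-0.0009 to 0.19) included 0.

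Over all copies, 9 of 9 were below the control in moderate hypoxia on scaled counts, and 6 of 9 were at least 2-fold lower, where 14.1% of the 28711 analysed rows were. In severe hypoxia against the control, 5 of 9 were above 0, none of the 9 was at least 2-fold higher (13.7% of rows), and 1, the low bnip3 copy, was at least 2-fold lower (4.40% of rows). In severe against moderate hypoxia, 9 of 9 were above 0 and 7 of 9 were at least 2-fold higher, where 9.03% of rows were. The remaining members, the 2819-base bnip3 copy and bnip3lb, were 1.88-fold and 1.97-fold higher. All 9 copies passed the minimum of 10 mean counts in a group, the low bnip3 copy only through the control and severe groups. That copy is among those counted as at least 2-fold lower in moderate hypoxia. It is also among those at least 2-fold higher in severe than in moderate hypoxia. Both counts, 6 of 9 and 7 of 9, also include the long bnip3 copy that shares reads with the 2819-base copy. How reads were divided between these long copies is an estimate. Read as a pair, they were at log2 ratios of -0.70 for moderate against control and 0.99 for severe against moderate hypoxia. The pair was thus short of 2-fold in both comparisons. On plain library totals 7 of 9 were below the control in moderate hypoxia and 2 were at least 2-fold lower, where 4.72% of rows were lower and 38.0% higher. In severe hypoxia 8 of 9 were then above the control and none of the 9 passed 2-fold, where 20.4% of rows were higher and 2.09% lower. Severe against moderate hypoxia kept 9 of 9 above 0, 3 of them at least 2-fold higher, where 4.39% of rows were higher and 19.5% lower. On library totals the median of all rows was at log2 ratios of 0.69 in moderate and 0.34 in severe hypoxia against the control. More rows thus lay above the control than below it. For severe against moderate hypoxia that median was -0.34. On scaled counts the medians of all symbols were 0.01, -0.02 and -0.01 in the 3 comparisons. Copies of a gene can share reads and are not replicates.

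**Figure D2:**
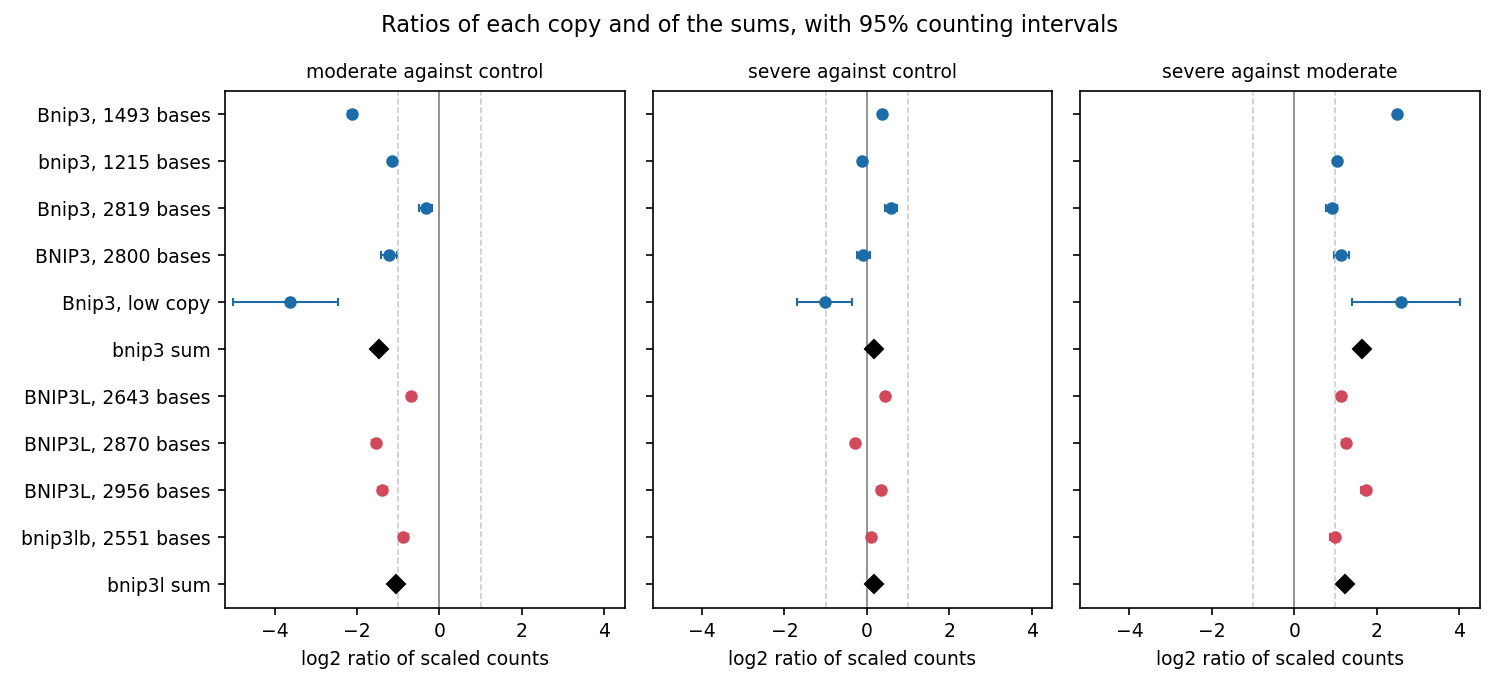
Log2 ratio of scaled counts for every copy (circles, blue for bnip3 and red for bnip3l) and for both sums (black diamonds) in the 3 comparisons, with 95% counting intervals as bars and dashed lines at 2-fold. In severe against moderate hypoxia all copies lie to the right of 0, from 0.91 to 2.60, and in moderate hypoxia against the control all lie to the left, from -3.62 to -0.33. The values 2.60 and -3.62 are those of the low bnip3 copy, which rest on few reads.

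With the low copy left aside and the long copies read as a pair, the bnip3 log2 ratios of moderate hypoxia to control ran from -2.13 for the 1493-base copy to -0.70 for the pair. Those of the bnip3l copies ran from -1.54 to -0.68. For severe against moderate hypoxia the bnip3 values ran from 0.99 for the pair to 2.50 for the 1493-base copy, and those of bnip3l from 0.98 to 1.73.

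The make-up of bnip3 by copy does not depend on how the groups are scaled, though counts favour longer copies. The 1493-base copy held 47.6% of bnip3 counts in the control (exact 95% interval 46.6 to 48.5), 30.2% under moderate hypoxia (29.1 to 31.3) and 54.3% under severe hypoxia (53.5 to 55.1). The 1215-base copy held 41.4%, 51.7% and 34.0% in the same order. Their intervals did not overlap between any 2 groups, so the shift exceeded counting error, and the spread between fish was not measured. In FPKM the 1493-base copy held 45.5%, 29.2% and 53.1% of bnip3. The 1215-base copy held 48.7%, 61.4% and 40.8% of FPKM, so on that scale it was the higher one in the control.

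In bnip3l, the 2643-base copy took 35.1% of counts in the control (34.2 to 36.1), 45.6% under moderate hypoxia (44.5 to 46.8) and 42.8% under severe hypoxia (41.9 to 43.6). The 2870-base copy went the other way, with 32.7% in the control and 23.4% and 23.7% in moderate and severe hypoxia. Between the receptors, bnip3 held 53.7% of the counts of both genes in the control, 46.4% under moderate hypoxia (45.6 to 47.3) and 53.7% under severe hypoxia. In FPKM, which corrects for the shorter bnip3 transcripts, the bnip3 sum was above the bnip3l sum in every group, at 169 and 75.6 in the control, 96.1 and 59.1 in moderate hypoxia and 235 and 108 in severe hypoxia.

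**Figure D3:**
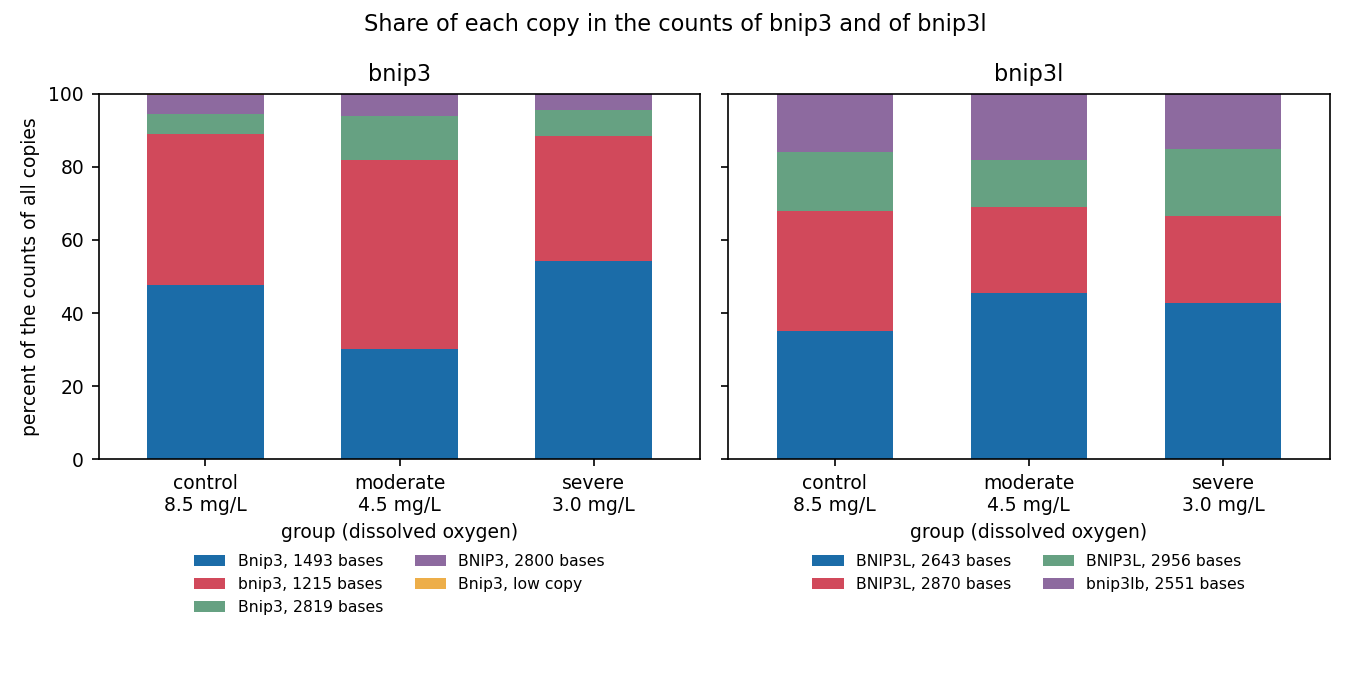
Percent of the counts of all copies taken by each copy in the 3 groups, for bnip3 (left) and bnip3l (right), with bars that add up to 100. The 1493-base bnip3 copy, at the bottom of the left bars, takes 47.6%, 30.2% and 54.3%, and the 2643-base bnip3l copy takes 35.1%, 45.6% and 42.8%.

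Gene length went with the ratios in these data. In the length bin of the 1215-base copy (463 genes of 1198 to 1276 bases) the median log2 ratio of moderate hypoxia to control was -0.60, and in that of the 1493-base copy it was -0.41. The bins of the bnip3l copies had medians between -0.06 and 0.09. Relative to their bins, the 1493-base copy stood at -1.72 and the 1215-base copy at -0.56 in moderate hypoxia, and at 2.26 and 0.64 for severe against moderate hypoxia. After removal of this trend the bnip3 sum was at -1.02 for moderate hypoxia against the control and the bnip3l sum at -1.05, so bnip3 was not lower than bnip3l with that correction. Severe against moderate hypoxia then stood at 1.36 and 1.20.

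**Figure D4:**
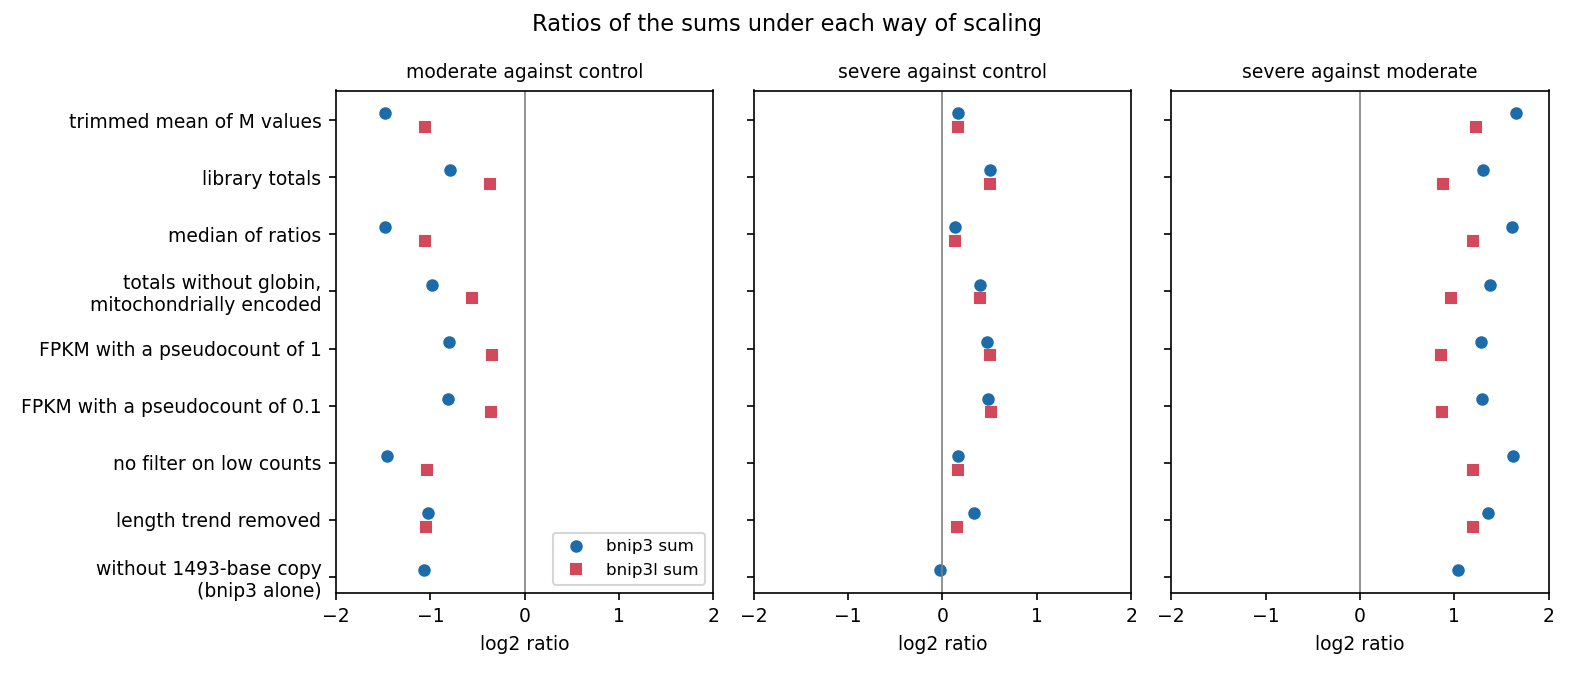
Log2 ratio of the bnip3 sum (circles) and the bnip3l sum (squares) in the 3 comparisons under each way of scaling or correcting the values, and for bnip3 without its 1493-base copy. Moderate hypoxia lies below the control in each setting, from -1.48 to -0.79 for bnip3 and from -1.06 to -0.35 for bnip3l, and severe hypoxia lies above moderate, from 0.86 to 1.65.

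Most red blood cell markers were also lower in moderate hypoxia than in the control on scaled counts. Of the 20 erythroid marker symbols, 14 were analysed, and 10 of these were at least 2-fold lower in moderate hypoxia than in the control, where 11.0% of all symbols were. In severe hypoxia 7 of the 14 were (2.54% of symbols). Together they took 11.3%, 3.73% and 6.57% of counts in control, moderate and severe hypoxia. The gene alas2, which encodes the erythroid enzyme that opens haem synthesis, was at 16755, 5294 and 11658 counts. Not all markers followed it: the spectrin gene sptb was at 1607, 2946 and 2129 counts, with log2 ratios of 0.18 and 0.12 to the control. The anion exchanger gene slc4a1 was at 20511, 18534 and 14548 counts, with ratios of -0.84 and -0.78. It was thus below the control in both groups, by less than 2-fold. The summed share is mostly that of the globins. In severe hypoxia the erythroid median stood at a log2 ratio of -0.97 to the control, beside 0.17 for each receptor sum. The part of the red cells in the receptors' values was not tested.

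Other groups of transcripts also differed between the groups. Mitochondrially encoded transcripts took 5.14%, 2.36% and 4.24% of counts in control, moderate and severe hypoxia. The skeletal muscle markers took 0.0639%, 0.0141% and 0.0448%, and 9 of the 10 analysed were at least 2-fold lower in moderate hypoxia, where 11.0% of all symbols were. Of the 9 liver and pancreas markers analysed, 8 were at least 2-fold lower in moderate hypoxia (11.0% of all symbols), with the apolipoprotein apoa2 at 229, 5.33 and 294 counts. The most abundant of the list, ambp, was at 2200, 2523 and 2787 counts, with a log2 ratio of -0.50 in moderate hypoxia. The list took 0.0216%, 0.0180% and 0.0262% of counts, mostly those of ambp. Neither the muscle nor the liver list had a symbol at 0 in any group. The 9 interrenal markers took 0.0421%, 0.0361% and 0.0662%, with median log2 ratios of -0.64 in moderate and 0.23 in severe hypoxia against the control and of 0.77 between the hypoxia groups, all 9 being higher in severe than in moderate hypoxia. Between the hypoxia groups the median of all symbols was -0.01. On plain library totals the interrenal median for moderate hypoxia was 0.05. The 5 macrophage markers analysed had medians of -0.49, 0.29 and 0.78 in these comparisons, and took 0.137%, 0.213% and 0.213% of counts, lowest in the control. Other blood cell markers took their highest share in moderate hypoxia. These were neutrophil (0.818%, 1.18% and 0.734%), B cell (0.0650%, 0.113% and 0.108%) and T and NK cell markers (0.0173%, 0.0273% and 0.0217%). Their median log2 ratios for moderate hypoxia against the control were 0.04, 0.22 and 0.10. Of the 9 neutrophil markers analysed, 5 were above the control in moderate hypoxia on scaled counts. The protease genes mmp9 (5333, 37901 and 6248 counts) and mmp13 (5514, 22255 and 5763) were the 2 past 2-fold there (15.8% of all symbols). The most abundant, mpo, was at 95226, 89768 and 72450 counts, with a log2 ratio of -0.78 in moderate hypoxia. The part of these cells and tissues in the receptors' values was not tested.

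Of the other mitophagy receptors, those of the FUNDC1 family came closest to bnip3 and bnip3l. Of 6 symbols analysed, 2 were at least 2-fold lower in moderate hypoxia than in the control (11.0% of all symbols) and none higher (15.8% of all symbols). The median log2 ratio was -0.22, beside 0.01 for all symbols, and was -0.03 with the trend with gene length removed. The gene fundc1, whose product is a hypoxia-linked mitophagy receptor of the outer membrane in mammals, was at 1907, 1483 and 2149 counts over 5 rows, with log2 ratios of -1.06 in moderate and -0.11 in severe hypoxia against the control. Its paralogue fundc2 was at 1096, 567 and 962 counts, with ratios of -1.65 and -0.47. For severe against moderate hypoxia, fundc2 was 2.25-fold higher, the only 1 of the 6 past 2-fold (6.75% of symbols), and fundc1 was at 0.94 on the log2 scale.

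The remaining receptors were less than 2-fold higher or lower in every comparison. The inner membrane receptor phb2 was at 1038, 1291 and 969 counts, with log2 ratios of -0.38 in moderate and -0.39 in severe hypoxia. The outer membrane receptor bcl2l13 was at 361, 763 and 484 counts, with ratios of 0.38 and 0.14. The receptor fkbp8 was at log2 ratios of -0.07 and 0.09 in moderate and severe hypoxia. The receptor nlrx1, at 105, 284 and 183 counts, was above the control in both groups, with ratios of 0.74 and 0.51. In FPKM the bnip3 and bnip3l sums were above each of these 6 receptors in every group. The levels nearest to them were those of fundc1 at 58.8, 43.1 and 67.8 FPKM, fundc2 at 41.3, 21.4 and 37.7 FPKM and phb2 at 36.9, 44.2 and 35.5 FPKM.

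Genes of the ubiquitin-dependent route were mostly within 2-fold of the control. Of 10 PINK1-Parkin symbols, 1 was at least 2-fold higher in moderate hypoxia and 1 lower, near the shares of all symbols (15.8% and 11.0%). Their median log2 ratio there was -0.36, and -0.09 with the length trend removed. None of the 10 passed 2-fold in severe hypoxia against the control (9.45% of symbols were higher). The kinase gene pink1 was at 444, 556 and 591 counts, with ratios of -0.37 in moderate and 0.13 in severe hypoxia. The ubiquitin ligase gene prkn, which encodes Parkin, was at 78.0, 72.7 and 62.3 counts, with ratios of -0.80 and -0.61. The deubiquitinase gene usp8 was 2.39-fold higher in moderate hypoxia and the mitochondrial ligase gene marchf5, at 386, 225 and 347 counts, was at -1.47. The name march5, the older symbol of that gene, is carried by another row, at 87.3, 158 and 102 counts.

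In the list of ubiquitin-binding adaptors, 1 of 6 symbols was at least 2-fold higher in moderate hypoxia (15.8% of all symbols). This was tbk1, which encodes a kinase and not an adaptor, at 173, 1317 and 407 counts, 4.70-fold higher. It was the only 1 of the 6 above the control in moderate hypoxia. It was 2.44-fold lower in severe than in moderate hypoxia, where 8.41% of symbols were at least 2-fold lower. The adaptor sqstm1, which encodes p62, was at 1462, 1529 and 1711 counts, with log2 ratios of -0.63 in moderate and -0.06 in severe hypoxia. The most abundant of the list by counts, tax1bp1, was at 3234, 4193 and 3830, with ratios of -0.32 and -0.04. The median of the 6 was -0.42 in moderate and -0.05 in severe hypoxia against the control. With the length trend removed the median for moderate hypoxia was -0.49.

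The ATG8 genes encode the proteins to which BNIP3 and NIX bind. Of 4 symbols analysed, none was above the control in moderate hypoxia on scaled counts, where the median of all symbols was 0.01. All 4 were above moderate hypoxia in the severe group, where the median of all symbols was -0.01. The list's median log2 ratios were -0.72 for moderate against control and 0.73 for severe against moderate. With the length trend removed these medians were -0.36 and 0.57. The rows whose symbol is cut to gabarapl, which covers GABARAPL1 and GABARAPL2, were at 2776, 1576 and 3617 counts over 4 rows. They were 2.85-fold lower in moderate hypoxia than in the control, where 11.0% of all symbols were at least 2-fold lower. In severe against moderate hypoxia they were 3.05-fold higher, where 6.75% of symbols were at least 2-fold higher. For the bnip3 sum these folds were 2.79 and 3.14. The length trend was left in these folds, and its removal took the bnip3 sum to log2 ratios of -1.02 and 1.36. No value of gabarapl alone with the trend removed is given here. Its folds are thus close to those of bnip3 only with the trend left in. The gabarap symbol was at 1806, 1642 and 1910 counts, with log2 ratios of -0.83 in moderate and -0.21 in severe hypoxia. The map1lc3b symbol was at 1439, 1706 and 2197 counts, with ratios of -0.45 and 0.32. On library totals the list's median for moderate hypoxia was -0.03. There gabarapl was at -0.82 and gabarap at -0.14, while map1lc3a, at 0.09, and map1lc3b, at 0.24, were above the control.

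**Figure D5:**
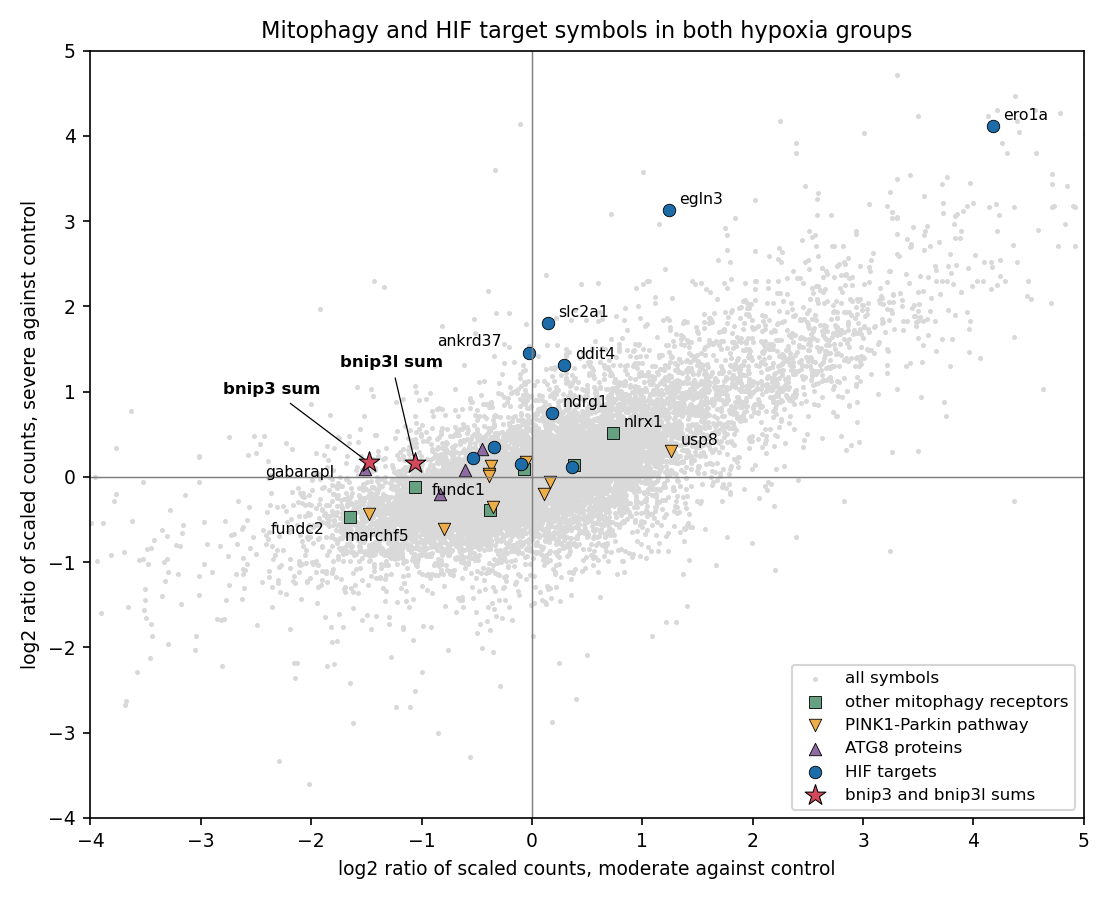
Log2 ratio to the control in severe hypoxia against that in moderate hypoxia for symbols summed over rows. Grey points are all 12965 symbols (63 lie outside the axes), coloured points the listed genes and stars the bnip3 and bnip3l sums. The sums lie left of 0 at -1.48 and -1.06 beside gabarapl, fundc1 and fundc2, while HIF targets such as egln3 and slc2a1 lie above 1 in severe hypoxia.

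Genes whose products act on the receptors in human cells stayed within 2-fold. Of 7 symbols, none was 2-fold higher or lower in any of the 3 comparisons. Of all symbols, 15.8% were at least 2-fold higher and 11.0% lower for moderate against control. These shares were 9.45% and 2.54% for severe against control, and 6.75% and 8.41% for severe against moderate. The genes fbxl4 and pptc7, whose products keep BNIP3 and NIX protein low, were at log2 ratios of -0.39 and 0.19 in moderate hypoxia and -0.26 and 0.15 in severe hypoxia against the control. The gene of BCL-XL, bcl2l1, was at 862, 1038 and 1161 counts, with log2 ratios of -0.43 in moderate and 0.14 in severe hypoxia. The small GTPase gene rheb was at 973, 1031 and 1098 counts, with ratios of -0.61 and -0.11. On plain library totals the medians for moderate hypoxia against the control were above 0 for the other receptors (0.47), the PINK1-Parkin genes (0.33), the adaptors (0.27) and these partners (0.26), where the median of all rows was 0.69.

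Of the 7 fission and fusion genes, 1 was at least 2-fold higher in moderate hypoxia and 1 lower, near the shares of all symbols (15.8% and 11.0%). The fission gene fis1, whose product sits in the outer membrane, was at 1453, 994 and 1503 counts, with log2 ratios of -1.24 in moderate and -0.24 in severe hypoxia. The fusion gene opa1 was at 207, 811 and 288 counts, 2.42-fold higher in moderate hypoxia. Of 11 nuclear genes for mitochondrial proteins, none passed 2-fold against the control in either hypoxia group, with median ratios of 0.05 and -0.22. In severe hypoxia 9.45% of all symbols were at least 2-fold higher and 2.54% lower, beside the 15.8% and 11.0% in moderate hypoxia. The most abundant of these genes, the channel gene vdac2, was at 4852, 5838 and 4528 counts. Its log2 ratios were -0.43 in moderate and -0.39 in severe hypoxia. The chaperonin gene hspd1 was 2.01-fold lower in severe than in moderate hypoxia (8.41% of symbols were at least 2-fold lower). Mitochondrially encoded transcripts differed more, with 5.14%, 2.36% and 4.24% of counts in control, moderate and severe hypoxia. The content of mitochondria itself was not measured.

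On scaled counts, all 10 HIF targets analysed were above the control in severe hypoxia and 6 of 10 in moderate hypoxia. Of these, moderate hypoxia had 2 and severe hypoxia 5 at least 2-fold higher than the control, where 15.8% and 9.45% of all symbols were, so the moderate count is near that of all symbols. The median log2 ratios were 0.16 in moderate and 1.03 in severe hypoxia, beside 0.01 and -0.02 for all symbols. On plain library totals every target was above the control in moderate hypoxia too. The medians were then 0.85 in moderate and 1.37 in severe hypoxia, beside 0.69 and 0.31 for all symbols. The prolyl hydroxylase gene egln3, a standard HIF target, was at 71.7, 274 and 766 counts, with ratios of 1.24 and 3.13. The glucose transporter gene slc2a1 was at 101, 180 and 428 counts, with ratios of 0.15 and 1.80, and ankrd37 was at 220, 350 and 738 counts, with -0.03 and 1.46. The stress gene ddit4 was at 158, 313 and 476 counts, with 0.30 and 1.31. The oxidase gene ero1a went from 6.33 to 186 and 134 counts. The bnip3 sum, at -1.48 and 0.17, was lower than each of these 5 in both groups, while in severe hypoxia pdk1, at 0.15, and p4ha1, at 0.12, were lower than the bnip3 sum.

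For severe against moderate hypoxia, the bnip3 sum had a higher ratio than 8 of the 10 HIF targets and the bnip3l sum than 7 of them, the median of the targets being 0.72. The bnip3 and bnip3l sums were at log2 ratios of 1.65 and 1.23, egln3 at 1.89, slc2a1 at 1.66, ankrd37 at 1.48 and ddit4 at 1.01, while p4ha1, a collagen hydroxylase gene, was at -0.25 and ero1a at -0.06. The HIF subunit genes were not higher in severe than in moderate hypoxia. The hif1a symbol was at 1630, 3574 and 2271 counts over 4 rows, with a log2 ratio of -0.25 for severe against moderate, and epas1, at 66.3, 423 and 212 counts, was 3.94-fold higher than the control in moderate hypoxia.

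The symbols whose pair of log2 ratios to the control lay nearest to that of the bnip3 sum were pno1, fabp7, phyhipl, lyrm9 and tmem26, at distances between 0.04 and 0.10 in the plane of both ratios. Each distance rests on 3 group values. Of 11013 symbols with at least 50 counts in a group, 23 lay within 0.25 of bnip3. The nearest, pno1, was at 2693, 1599 and 3752 counts. For bnip3l the nearest were sh2d1a, fbxo2, ddt-a, gsta2 and chmp2a, and 133 symbols lay within 0.25. The bnip3 and bnip3l sums were 0.42 apart.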

How the data were processed

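Head kidney RNA was sequenced in 9 libraries, grouped by the treatment in the labels. The deposited table gives 1 FPKM and 1 mean estimated count per gene and group, per the file headers. Counts were taken as means of 3 libraries, since 7 of the 9 members' values were whole within 0.01 after multiplication by 3. The submitters' processing notes list Bowtie2 2.2.8 and HISAT2 without saying what each was used for. How reads were counted, on which genome build and with which filters is not given in the sources used here. Lines were split by position into 16 fields of 8 characters, which cut IDs and symbols.

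The 28711 rows with at least 10 mean counts in a group were analysed (pandas 2.3.3, scipy 1.17.1, numpy 2.4.6). Scaling used the trimmed mean of M values (trimming 30% by ratio, 5% by abundance). It was tried on simulated counts in which few genes changed, with folds drawn evenly up and down. That simulation held no shift as broad as in these data, so it cannot tell how well the scaling did here. Ratios of 2-fold or more were counted, and a group at 0 was set to 3 counts over the group. Ratio intervals are Clopper-Pearson intervals of rounded counts. Symbols were summed over rows, and symbols of 8 characters were used only where every RefSeq symbol starting so was in the list. Lengths are count over FPKM and total. Members and lists were chosen with earlier results of these data known. Listed genes were to be named when past 2-fold or most abundant, and the others named were chosen after their values were seen. The planned count test needs values per library and was not run.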

Additional observations from a re-analysis of the deposited data

How the results depend on the processing

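The sums kept their direction under the 7 other scalings, filters and corrections tried on all copies. For bnip3, moderate against control was -0.79 on library totals, -0.98 on totals without globin and mitochondrially encoded genes, -0.80 and -0.81 on FPKM with pseudocounts of 1 and 0.1, and -1.02 with the length trend removed. Severe against control was 0.51, 0.40, 0.48, 0.48 and 0.34 in that order, and severe against moderate 1.30, 1.38, 1.28, 1.29 and 1.36. For bnip3l, the first 4 of these gave -0.37, -0.56, -0.35 and -0.35 for moderate against control, 0.51, 0.40, 0.51 and 0.51 for severe against control, and 0.88, 0.96, 0.86 and 0.87 for severe against moderate, so that bnip3l was under 2-fold in all of them there, and bnip3 under 2-fold for moderate against control. Chosen after seeing the data, the bnip3 sum without its 1493-base copy was at -1.07, -0.030 and 1.04 in the 3 comparisons. The value for severe against control was thus below 0, but its counting interval (-0.08 to 0.02) included 0, so no direction is read from it. Median-of-ratios factors and no filter stayed within the counting intervals. Of single copies, 2 of 9 were above the control in moderate hypoxia on library totals, the 2643-base bnip3l copy and the 2819-base bnip3 copy, and 9 of 9 were higher in severe than in moderate hypoxia under each of these settings that gave a value, the low copy having none with the length trend removed. Of all rows, 5734 were at least 2-fold higher and 4043 lower for moderate against control, 3934 and 1264 for severe against control, and 2592 and 3012 for severe against moderate. On library totals these counts were 10899 and 1354, 5868 and 599, and 1259 and 5599, with a minimum of 50 counts 3689 and 2820, 2260 and 622, and 1601 and 1995, and at 1.5-fold 8433 and 7472, 6396 and 3773, and 6044 and 6259. No paired analysis was possible because the table holds 1 value per group, and for the same reason no library could be left out.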

Other observations

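Other genes share the start of the name but are not members here. They were looked at after the data were seen. Mean counts of bnip2 were 169, 443 and 269.7 in control, moderate and severe hypoxia, and its log2 ratio of moderate hypoxia to control was 0.70, with a counting interval from 0.55 to 0.85. The bnip1 and bnip1b rows, named for a SNARE protein of the endoplasmic reticulum, summed to 86.3, 95.7 and 143 counts. The ratios of this sum were -0.55 in moderate and 0.44 in severe hypoxia. Taken singly, bnip1 was at 0.03 and 0.15 and bnip1b at -0.68 and 0.49. The BNIPL rows were at 578, 537 and 659 counts, with ratios of -0.80 and -0.10.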
